A study of Mus musculus with 13 samples.

Results

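The enzymes of mitochondrial and peroxisomal beta-oxidation were followed in liver RNA of obese mice given canagliflozin or less food. The members are 32 listed genes, read from the value table of 13 Affymetrix mouse gene arrays through probe sets that carry exactly 1 gene symbol, with the brightest probe set taken where a gene had several. All 32 had a probe set, and all 32 were among the 13308 tested genes, out of 22180 genes with a probe set. By known location, 14 members are mitochondrial, 14 peroxisomal and 4 are known in both compartments (Acad11, Eci2, Ech1 and Amacr), which are shown apart.

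All mice were male C57Bl/6J, put on a 60% fat diet at the age of 6 weeks, and ate it for 4 weeks before the groups were formed. For 4 more weeks the mice of the HFD group (4 arrays) stayed on that diet. Those of the CANA group (4 arrays) had the diet with canagliflozin at 25 to 30 mg/kg. Those of the CR group (5 arrays) were held to 15 to 30% fewer calories so that their weight followed that of the CANA mice. Canagliflozin inhibits SGLT2, the glucose carrier of the kidney tubule, so that glucose is lost in urine. The model is diet-induced, with no transgene named in the labels. The labels do not say whether each array was a separate animal, so the spread that the p-values rest on may be technical. In whole liver, fewer cells of a type and less RNA per cell cannot be told apart.

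Beta-oxidation shortens fatty acids by repeating dehydrogenation, hydration, a second dehydrogenation and thiolytic cleavage. In mitochondria the first step passes electrons through the electron transfer flavoprotein to the respiratory chain, and the acetyl-CoA feeds the citric acid cycle or ketone body synthesis. In peroxisomes the first step is made by oxidases that give hydrogen peroxide, and the pathway takes very long, branched and bile-acid side chains and dicarboxylic acids. Many of these genes are textbook targets of PPAR-alpha, the nuclear receptor that liver uses in fasting.

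No member passed the test in any comparison. In CANA the mitochondrial members mostly had slightly higher means than in HFD or CR, with median log2 differences of 0.09 and 0.13. The peroxisomal members were divided against HFD, with means of Ehhadh, Acaa1a and Pex11a higher and of Abcd2, Pecr and Acox2 lower. Not all of these signs were steady. In arrays whose labels carry serial numbers 1 to 8, CANA minus HFD was 0.17 for Abcd2 and 0.07 for Acox2. In those numbered 9 to 14 it was 0.0074 for Acaa1a, while Ehhadh and Pex11a were higher in both sets. By limma with Benjamini-Hochberg adjustment over all tested genes, 0 of 32 members had an adjusted p under 0.05 in CANA against HFD, where 0.165% of all genes did. The count was also 0 of 32 in CANA against CR (0.15% of all genes) and in CR against HFD (0% of all genes). The smallest adjusted p of a member was 0.478 (Ehhadh), 0.414 (Hadhb, a dim probe set, followed by Pex11a at 0.481) and 0.999 in these 3 comparisons. At an unadjusted p under 0.05, 6 of 32 members were higher in CANA than in HFD, against 3.63% of all genes, and none was lower (5.19% of all genes). Against CR, 8 were higher (4.11% of all genes) and 1, Acox2, was lower (4.32%). In CR against HFD it was 0 of 32, against 3.74% of all genes in either direction. The 6 and the 8 higher members both include the dim Hadhb.

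The intervals bound how large a difference could have been. A change of 1.5-fold is 0.585 on the log2 scale. The 95% interval of CANA minus HFD lay within 1.5-fold either way for 26 of 32 members, among them 13 of 14 mitochondrial ones (all but Hadhb). The other members were Abcd2, Ehhadh, Acaa1a, Hacl1 and Pex11a, all peroxisomal. For CR minus HFD the interval lay within 1.5-fold for 30 of 32, all but Abcd2 and Hacl1. For CANA minus CR this held for 28 of 32, all but Hadhb, Abcd2, Hacl1 and Pex11a.

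**Figure D1:**
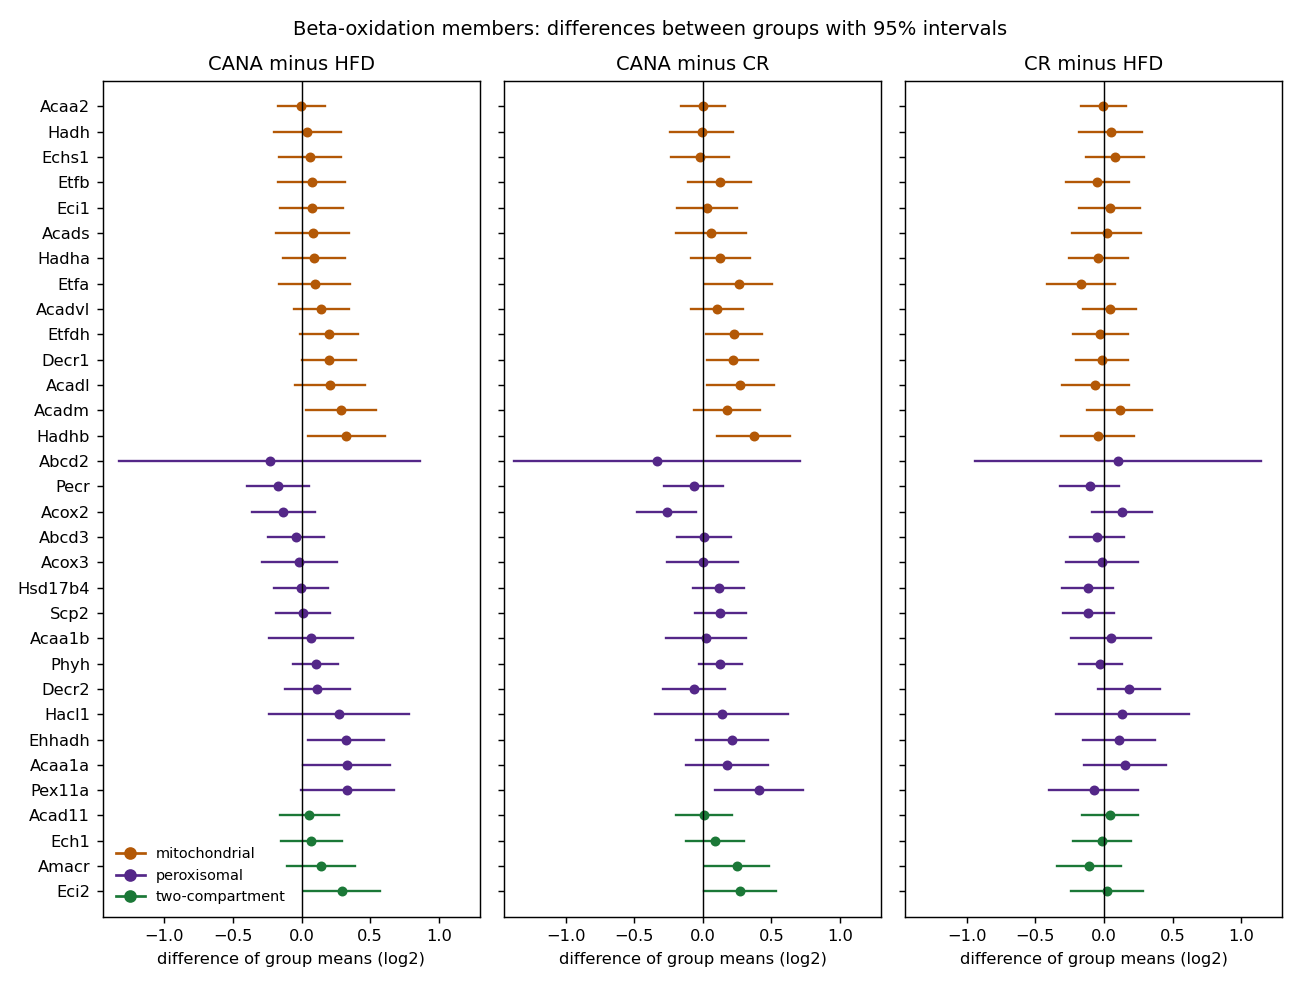
Differences of group means on the log2 scale (horizontal axis) with 95% intervals of limma for the 32 members, in 3 comparisons, coloured by compartment and ordered by CANA minus HFD within each. The mitochondrial members lie at or right of zero in CANA minus HFD with short intervals, and Abcd2 has the widest interval, from -1.33 to 0.87.

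Among the mitochondrial members the dehydrogenases come first. Acadvl, Acadl, Acadm and Acads remove the first hydrogens from very long, long, medium and short acyl chains. Acadm, the medium-chain enzyme, read 11.02, 11.28, 11.51 and 11.39 in HFD replicates 1 to 4, 11.50, 11.67, 11.69 and 11.50 in CANA, and 11.53, 11.56, 11.19, 11.27 and 11.53 in CR (log2 values). All CANA arrays but replicates 1 and 4 lay above all HFD arrays, and the groups overlapped through HFD replicate 3. HFD averaged 11.30 ± 0.21 (SD, n = 4), CANA 11.59 ± 0.10 (SD, n = 4) and CR 11.41 ± 0.17 (SD, n = 5). CANA exceeded HFD by 0.29 (SE 0.12, 1.22-fold, adjusted p = 0.488) and CR by 0.17 (SE 0.11, adjusted p = 0.719). The difference from HFD was 0.43 within the arrays whose labels carry serial numbers 1 to 8 and 0.14 within 9 to 14. Acadl, the long-chain enzyme, was at 9.99 ± 0.14, 10.19 ± 0.17 and 9.92 ± 0.19 in HFD, CANA and CR, with CANA minus CR of 0.27 (adjusted p = 0.544). Acadvl and Acads had CANA minus HFD of 0.14 and 0.08, with adjusted p of 0.732 and 0.927.

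The trifunctional protein carries out the later steps on long chains, with Hadha as the subunit of the hydratase and dehydrogenase and Hadhb as that of the thiolase. Their promoters are printed because both genes start from 1 short region in opposite directions. In RefSeq (GRCm38.p6) their start sites lie 273 bases apart, and the windows from 250 bases before to 50 after each start share 228 bases, at chr5:30155003-30155230, given here on the plus strand.
Hadha and Hadhb, shared: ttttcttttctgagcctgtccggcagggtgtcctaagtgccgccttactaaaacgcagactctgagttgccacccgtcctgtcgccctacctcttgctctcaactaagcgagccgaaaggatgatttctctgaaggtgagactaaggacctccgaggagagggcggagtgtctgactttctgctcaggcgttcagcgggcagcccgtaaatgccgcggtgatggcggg

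Hadha read 10.63, 10.65, 10.87 and 10.84 in HFD, 10.78, 10.83, 10.99 and 10.74 in CANA, and 10.73, 10.63, 10.46, 10.82 and 10.90 in CR. The groups overlapped throughout. CANA minus HFD was 0.09 (SE 0.11, adjusted p = 0.893; 0.17 and 0.01 in arrays numbered 1 to 8 and 9 to 14) and CANA minus CR 0.13 (SE 0.10, adjusted p = 0.780). The probe set of Hadhb was dim, since genes needed a mean of at least 3.95 to be tested. It read 4.05, 4.13, 4.18 and 3.79 in HFD, 4.39, 4.32, 4.62 and 4.12 in CANA, and 3.71, 4.29, 4.03, 3.96 and 3.96 in CR. CANA exceeded HFD by 0.33 (SE 0.13, adjusted p = 0.480) and CR by 0.37 (SE 0.13, adjusted p = 0.414), and CANA replicate 4 lay inside the HFD range. The probe set lay at about the level of the array medians (4.07 to 4.13), and Hadhb had no other probe set. Whether it reports the Hadhb transcript was not tested, so its values are not read as those of the thiolase subunit.

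Echs1, the short-chain hydratase, Hadh, the short-chain hydroxyacyl-CoA dehydrogenase, Acaa2, the thiolase, and Eci1, an isomerase for unsaturated chains, had CANA minus HFD of 0.06, 0.04, -0.0029 and 0.07. Their adjusted p was at least 0.921. Acaa2 was the steadiest of these, with all 3 group means at 11.11 and SDs of 0.09, 0.05 and 0.04 for HFD, CANA and CR, and the interval of its difference from HFD ran from -0.17 to 0.17. Decr1, the mitochondrial 2,4-dienoyl-CoA reductase that prepares polyunsaturated chains, read 7.65, 7.74, 7.79 and 7.80 in HFD, 8.05, 7.82, 8.05 and 7.87 in CANA, and 7.74, 7.64, 7.64, 7.71 and 7.93 in CR. It was the mitochondrial member whose CANA arrays all lay above all HFD arrays, as did those of 2.13% of all genes. CR replicate 5 lay inside the CANA range. CANA minus HFD was 0.20 (SE 0.09, 1.15-fold, adjusted p = 0.554), and came to 0.23 in arrays numbered 1 to 8 and 0.17 in those numbered 9 to 14, and CANA minus CR was 0.22 (adjusted p = 0.543).

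The electron transfer flavoprotein, made of the products of Etfa and Etfb, collects electrons from the acyl-CoA dehydrogenases, and Etfdh passes them to ubiquinone. Etfdh read 10.21, 10.49, 10.60 and 10.49 in HFD, 10.57, 10.73, 10.69 and 10.61 in CANA, and 10.48, 10.53, 10.28, 10.29 and 10.51 in CR. All CANA arrays lay above all CR arrays, as in 1.42% of all genes, and HFD replicate 3 lay inside the CANA range. CANA minus CR was 0.23 (SE 0.10, 1.17-fold, adjusted p = 0.544) and CANA minus HFD 0.20 (SE 0.10, adjusted p = 0.603). The difference from CR was 0.22 and 0.24 in arrays numbered 1 to 8 and 9 to 14, while that from HFD was 0.30 and 0.10, and 0.12 without HFD replicate 1. Etfa read 10.12, 10.25, 9.76 and 9.89 in HFD, 10.15, 10.34, 9.90 and 10.01 in CANA, and 9.90, 9.95, 9.70, 9.74 and 9.90 in CR. Its CANA and HFD arrays overlapped, and CANA minus CR was 0.26 (SE 0.12, adjusted p = 0.557), or 0.39 and 0.14 in the earlier and the later arrays. Etfb read 9.54, 9.29, 9.18 and 9.05 in HFD, 9.36, 9.52, 9.22 and 9.25 in CANA, and 9.33, 9.27, 9.31, 9.13 and 9.05 in CR, with CANA minus HFD of 0.07 (adjusted p = 0.926).

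Etfb was higher in all arrays numbered 1 to 8 than in any numbered 9 to 14, by a narrow gap. It averaged 9.37 ± 0.11 over the 7 arrays numbered 1 to 8, none below 9.27, and 9.15 ± 0.09 over the 6 numbered 9 to 14, none above 9.25 (SD). Its slope was -0.03 per number in a limma fit with the groups (unadjusted p = 0.0035, adjusted p = 0.163). The 2 sets were chosen with earlier results of these data known, so they are a description. Across members, 5 of 32 had an unadjusted p under 0.05 for this slope, against 11.9% of all genes, and 0 of 32 had an adjusted p under 0.05, against 0.376%. The 5 were Abcd2, Etfb, Pecr, Decr2 and Pex11a. Every group had arrays in both sets, and what the number stands for is not given in the labels.

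**Figure D2:**
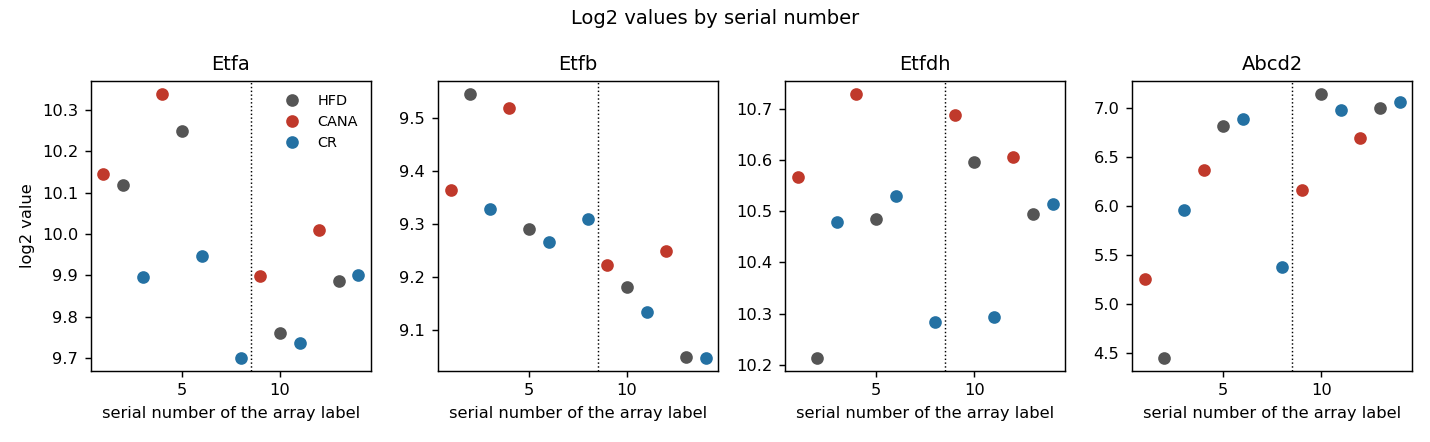
Log2 values (vertical axis) of the 3 electron transfer genes and of Abcd2 against the serial number in the array label (horizontal axis), coloured by group, with a dotted line between numbers 8 and 9. Etfb is lower in all 6 later arrays, and Abcd2 has its lowest values, 4.45 to 5.96, among the earlier arrays.

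Entry into peroxisomes runs through the half-transporters Abcd2 and Abcd3, which carry acyl-CoAs across the membrane. Abcd3 read 10.76, 11.03, 10.84 and 10.97 in HFD, 10.81, 11.00, 10.85 and 10.78 in CANA, and 10.96, 10.76, 10.70, 10.85 and 10.98 in CR. The groups overlapped fully, with CANA minus HFD of -0.04 (95% interval -0.25 to 0.17, adjusted p = 0.957). Abcd2 read 4.45, 6.82, 7.14 and 7.00 in HFD, 5.25, 6.37, 6.17 and 6.69 in CANA, and 5.96, 6.89, 5.38, 6.98 and 7.06 in CR. A low array stood in every group, and HFD replicate 1 was the lowest. CANA minus HFD was -0.23 (SE 0.52, adjusted p = 0.956), -0.87 without HFD replicate 1, 0.17 within serial numbers 1 to 8 and -0.64 within 9 to 14. Abcd2 averaged 5.88 ± 0.90 over the earlier and 6.84 ± 0.36 over the later arrays.

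The oxidases of branched chains take the first step. Acox2, which acts on bile acid intermediates, read 9.18, 9.30, 9.39 and 9.38 in HFD, 9.26, 9.35, 9.17 and 8.93 in CANA, and 9.46, 9.45, 9.27, 9.64 and 9.39 in CR. Its mean was lowest in CANA and highest in CR, and CANA and CR overlapped in CR replicate 3. CANA minus CR was -0.26 (SE 0.10, 0.833-fold, adjusted p = 0.510), or -0.09 and -0.47 in the earlier and the later arrays, and CANA minus HFD was -0.13 (adjusted p = 0.805), and came to 0.07 in arrays numbered 1 to 8 and -0.33 in those numbered 9 to 14. Acox3, the oxidase of pristanoyl-CoA, was at 6.90 ± 0.13, 6.88 ± 0.14 and 6.88 ± 0.25 in HFD, CANA and CR.

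Hydration and the second dehydrogenation are joined in 1 protein in peroxisomes. Ehhadh, the L-bifunctional enzyme needed for dicarboxylic acids, read 9.30, 9.17, 9.45 and 9.49 in HFD, 9.49, 9.96, 9.88 and 9.38 in CANA, and 9.43, 9.38, 9.33, 9.49 and 9.68 in CR. CANA replicates 2 and 3 lay above all other arrays, and CANA replicates 1 and 4 lay within the range of the other groups. CANA minus HFD was 0.32 (SE 0.13, adjusted p = 0.478), and came to 0.49 in arrays numbered 1 to 8 and 0.16 in those numbered 9 to 14. CANA minus CR was 0.21 (SE 0.12, adjusted p = 0.684), and 0.12 without CANA replicate 2. Hsd17b4, the D-bifunctional enzyme for branched and very long chains, had CANA minus HFD of -0.0034 (95% interval -0.20 to 0.19, adjusted p = 0.996).

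The thiolases of the mouse peroxisome are encoded by a pair of close relatives, Acaa1a and Acaa1b, whose probes can share targets, so each value is uncertain between them. Their promoters in RefSeq (GRCm38.p6) are printed because the windows differ where the coding genes are alike. Aligned end to end, the windows had 51.8% identical positions over the alignment, close to the 47.2% of Ehhadh against Acaa1b, which are not paralogs.
Acaa1a, chr9:119341044-119341343, plus strand: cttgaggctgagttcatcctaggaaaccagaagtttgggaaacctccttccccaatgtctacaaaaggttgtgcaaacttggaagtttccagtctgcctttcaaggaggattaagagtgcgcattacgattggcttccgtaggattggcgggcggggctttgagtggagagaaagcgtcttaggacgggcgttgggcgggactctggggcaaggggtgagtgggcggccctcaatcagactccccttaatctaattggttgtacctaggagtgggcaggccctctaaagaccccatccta
Acaa1b, chr9:119157044-119157343, minus strand: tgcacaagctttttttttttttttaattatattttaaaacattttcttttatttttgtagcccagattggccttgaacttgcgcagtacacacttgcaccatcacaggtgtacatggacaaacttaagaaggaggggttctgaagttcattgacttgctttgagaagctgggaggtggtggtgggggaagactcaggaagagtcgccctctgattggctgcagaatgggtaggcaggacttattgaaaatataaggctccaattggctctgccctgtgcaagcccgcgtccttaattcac

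Acaa1a read 7.46, 7.46, 7.96 and 7.51 in HFD, 8.03, 8.19, 7.98 and 7.51 in CANA, and 7.71, 7.78, 7.93, 7.51 and 7.83 in CR. HFD replicate 3 stood with the high CANA arrays, and CANA replicate 4 with the low HFD arrays. CANA minus HFD was 0.33 (SE 0.15, 1.26-fold, adjusted p = 0.544), and came to 0.65 in arrays numbered 1 to 8 and 0.0074 in those numbered 9 to 14. Acaa1b read 10.39, 10.24, 10.74 and 10.31 in HFD, 10.53, 10.67, 10.50 and 10.27 in CANA, and 10.79, 10.56, 10.09, 10.40 and 10.52 in CR. The groups overlapped fully, with CANA minus HFD of 0.07 (SE 0.14, adjusted p = 0.949), or 0.28 and -0.14 in the earlier and the later arrays. Whether the differences of the paralogs differ was not tested. Scp2, whose longer product is the thiolase of branched chains and whose shorter one binds sterols, had CANA minus HFD of 0.01 (adjusted p = 0.988), and its probe set does not tell the products apart here.

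Enzymes that prepare substrates for the peroxisome gave mixed signs. Phyh, which starts alpha-oxidation of phytanic acid, read 11.28, 11.36, 11.32 and 11.35 in HFD, 11.45, 11.49, 11.39 and 11.39 in CANA, and 11.28, 11.37, 11.30, 11.34 and 11.22 in CR. All CANA arrays lay above all other arrays, but the differences were small, at 0.10 against HFD (SE 0.08, 1.07-fold, adjusted p = 0.780) and 0.13 against CR (SE 0.07, 1.09-fold, adjusted p = 0.671). A dimmer probe set of Phyh, which was not used, gave 0.29 and 0.23. Phyh was the peroxisomal member without overlap in either comparison, and with Decr1 and Etfdh it made up 2 of 32 members in each, where 2.13% of all genes were higher without overlap in CANA against HFD and 1.42% in CANA against CR. Hacl1, the lyase of the same route, ranged from 9.12 to 10.25 in CANA and from 8.88 to 10.00 in CR, wider than the 9.13 to 9.51 of HFD. Decr2, the peroxisomal dienoyl-CoA reductase, had CANA minus HFD of 0.12, and Pecr, the trans-2-enoyl-CoA reductase, -0.17 (adjusted p = 0.850 and 0.704).

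Pex11a, which promotes elongation and division of peroxisomes, had the highest difference between CANA and CR of all members. It read 8.01, 7.91, 8.53 and 8.15 in HFD, 8.43, 8.32, 8.64 and 8.55 in CANA, and 8.12, 7.86, 7.80, 8.02 and 8.57 in CR. HFD replicate 3 and CR replicate 5 lay among the CANA arrays, and all other HFD and CR arrays lay below them. CANA minus CR was 0.41 (SE 0.15, 1.33-fold, adjusted p = 0.481) and CANA minus HFD 0.33 (SE 0.16, 1.26-fold, adjusted p = 0.579). The difference from CR was 0.45 within serial numbers 1 to 8 and 0.30 within 9 to 14.

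**Figure D3:**
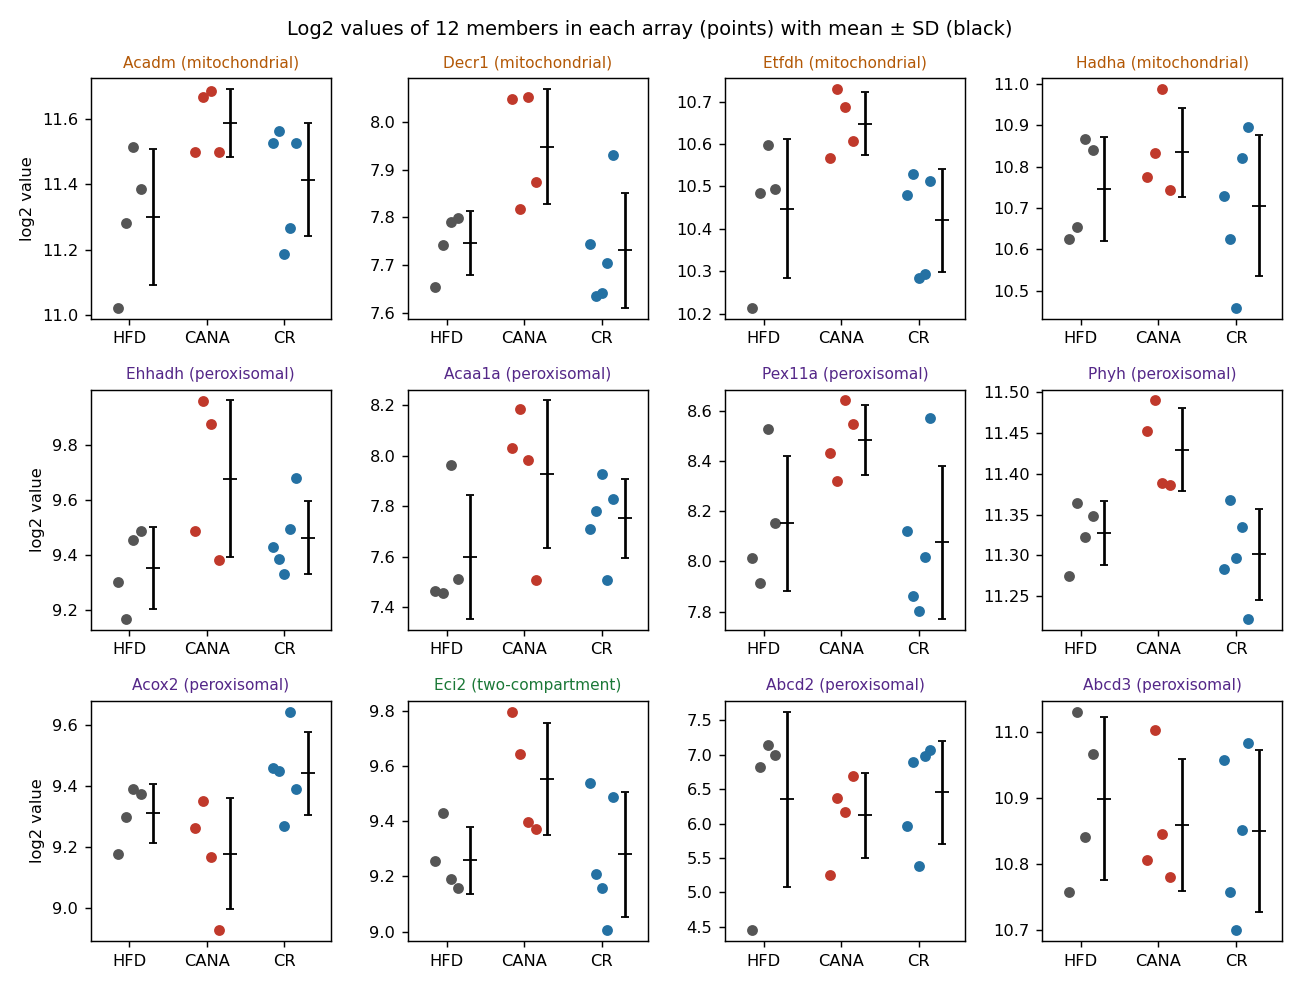
Log2 values (vertical axes, each with its own range) of 12 members in every array, by group, with the group mean and SD in black. The CANA arrays of Decr1 lie above all HFD arrays and those of Phyh above all other arrays, while Abcd3 overlaps across groups and 1 HFD array of Abcd2 lies at 4.45.

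Of the 4 two-compartment members, Eci2, an isomerase of unsaturated chains, had the smallest F-test p. It read 9.26, 9.43, 9.19 and 9.16 in HFD, 9.80, 9.64, 9.40 and 9.37 in CANA, and 9.54, 9.21, 9.16, 9.01 and 9.49 in CR. The groups overlapped, with CANA minus HFD of 0.29 (SE 0.13, 1.23-fold, adjusted p = 0.530) and CANA minus CR of 0.27 (SE 0.12, adjusted p = 0.572). The difference from CR was 0.42 in arrays numbered 1 to 8 and 0.14 in those numbered 9 to 14. Amacr, the racemase of branched chains, had CANA minus CR of 0.25 (adjusted p = 0.562), where CANA replicate 2 at 10.48 stood apart from the other CANA arrays at 10.00 to 10.04. Acad11, an acyl-CoA dehydrogenase, and Ech1, a dienoyl-CoA isomerase, had CANA minus HFD of 0.06 and 0.07.

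Set side by side, the compartments differed in how uniform their signs were. Of 14 mitochondrial members 13 had a higher mean in CANA than in HFD, and of 14 peroxisomal members 8 did, where 46.1% of all tested genes did. The median difference was 0.09 for the mitochondrial members (range -0.0029 to 0.33, its top being the dim Hadhb, followed by Acadm at 0.29), 0.04 for the peroxisomal ones (range -0.23 to 0.33) and -0.01 over all genes. In CANA minus CR, 12 of 14 and 9 of 14 were above zero, against 48.8% of all genes, with medians of 0.13 and 0.07 and -0.0037 over all genes. The 13 and the 12 mitochondrial members above zero both include the dim Hadhb. In CR minus HFD, 6 of 14 and 7 of 14 were above zero, against 46.4% of all genes, with medians of -0.01 and 0.02 and -0.01 over all genes. The comparisons share arrays, so their counts are not independent of each other, and no test of a difference between the compartments is given. Single arrays moved these medians. In CR minus HFD both took either sign when 1 array was left out, from -0.03 to 0.01 for the mitochondrial and from -0.02 to 0.08 for the peroxisomal members. The mitochondrial median in CANA minus HFD was 0.15 without CANA replicate 4 or without HFD replicate 1, and 0.09 among genes above the median level, which leaves out Hadhb. The peroxisomal one in CANA minus CR was 0.03, 0.02, 0.04 and 0.12 without CANA replicate 2, CANA replicate 3, CR replicate 3 and CANA replicate 4. The peroxisomal median in CANA minus HFD was 0.0092, 0.07 and 0.08 without HFD replicate 4, HFD replicate 3 and CANA replicate 4, and was -0.0064 without CANA replicate 2 and -0.02 within serial numbers 9 to 14, and within 9 to 14 the one in CANA minus CR was -0.04.

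Averaged over the 14 mitochondrial members and centred on each gene's mean over the groups, the HFD arrays lay at -0.08, -0.0040, -0.01 and -0.07 on the log2 scale. The CANA arrays lay at 0.09, 0.16, 0.13 and -0.02, and the CR arrays at 0.03, -0.02, -0.17, -0.10 and 0.02. CANA replicates 1 to 3 were above all other arrays, and CANA replicate 4 was within the HFD range. The peroxisomal average ran from -0.23 to 0.11 in HFD, from -0.06 to 0.16 in CANA and from -0.17 to 0.12 in CR, so the groups overlapped.

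**Figure D4:**
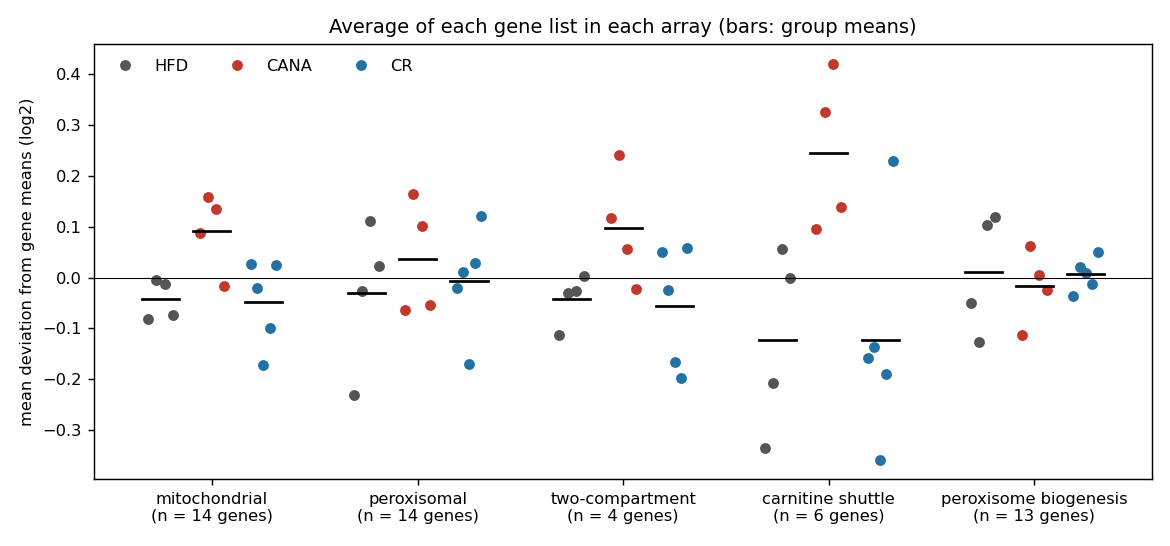
Mean deviation of each list from its gene means (log2, vertical axis) in every array, by group, with bars at the group means, for the 3 member classes, the carnitine shuttle and peroxisome biogenesis. For the mitochondrial list, CANA arrays 1 to 3 have deviations of 0.09 to 0.16, and the highest array of the other groups has 0.03. The peroxisomal arrays overlap, and the carnitine shuttle spreads most, from -0.36 to 0.42.

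Genes around the members were read from 3 further lists. The carnitine shuttle brings acyl groups to the mitochondrial matrix or out of peroxisomes. All 6 of its genes were above zero in CANA minus HFD and CANA minus CR, against 46.1% and 48.8% of all genes. The medians were 0.29 and 0.34. In each comparison 1 of the 6 passed, against 0.165% and 0.15% of all genes. It was Slc22a5, the carnitine transporter, which rose 1.85-fold against HFD (adjusted p = 0.038) and 1.74-fold against CR (adjusted p = 0.046). Crot, the peroxisomal carnitine octanoyltransferase, had CANA minus HFD of 0.29 (SE 0.11, adjusted p = 0.414) and CANA minus CR of 0.36 (SE 0.10, adjusted p = 0.274). Its CANA arrays, at 10.52 to 10.71, lay above all HFD and CR arrays, which reached 10.48 and 10.39. Of all genes, 2.13% were higher without overlap in CANA against HFD and 1.42% in CANA against CR.

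Peroxisome biogenesis genes and catalase had 13 of 16 listed genes tested, and the other 3 had no probe set of their own symbol. None of the 13 passed in any comparison. In CANA minus HFD 6 were above zero, against 46.1% of all genes, and the median was -0.01. The smallest p in CANA against HFD were those of Pex5 and Pex7, the receptors that bring proteins with either type of targeting signal into peroxisomes. Pex7 read 7.53, 7.51, 7.46 and 7.45 in HFD and 7.22, 7.22, 7.19 and 7.44 in CANA. HFD replicate 4 lay just above CANA replicate 4. CANA minus HFD was -0.22 for Pex7 (SE 0.09, adjusted p = 0.467) and -0.26 for Pex5 (SE 0.10, adjusted p = 0.418). At an unadjusted p under 0.05, 3 of 13 were lower in CANA than in HFD and none higher, against 5.19% and 3.63% of all genes. Among 7 regulators none passed in any comparison. Ppara, the gene of PPAR-alpha, had CANA minus HFD of -0.05 (95% interval -0.36 to 0.25). Ppargc1a, a coactivator of oxidative genes, was 1.37 higher (SE 0.26, adjusted p = 0.051), and Nrf1, a factor for respiratory genes, was at -0.29 (SE 0.08, adjusted p = 0.192). Nrf1 also read lower in CR (6.06 to 6.14) than in HFD (6.21 to 6.31), and its CANA minus CR was -0.12.

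The promoters were searched for letters of the PPAR response element, since many members are textbook PPAR-alpha targets. RefSeq windows were matched for 27 of 32 members, 29 windows in all. A direct repeat of AGGNCA with 1 base between the copies was in 0 of the 29 windows on either strand, and in 0.381% of all 32851 windows of the same length. Its half-site AGGTCA, either strand, was in 5 of 29 (17.2%), against 16.3% of all windows. It was in 3 of 12 windows of mitochondrial members, each of another gene, and in 2 of 14 windows of peroxisomal ones (Phyh and Scp2), which cover 12 of the 14 peroxisomal genes. These windows cover only 300 bases, and a match is a description. The 3 mitochondrial windows are printed with the half-site in capitals because they hold the only matches of that class, all on the minus strand of GRCm38.p6.
Acadm, chr3:153944594-153944893: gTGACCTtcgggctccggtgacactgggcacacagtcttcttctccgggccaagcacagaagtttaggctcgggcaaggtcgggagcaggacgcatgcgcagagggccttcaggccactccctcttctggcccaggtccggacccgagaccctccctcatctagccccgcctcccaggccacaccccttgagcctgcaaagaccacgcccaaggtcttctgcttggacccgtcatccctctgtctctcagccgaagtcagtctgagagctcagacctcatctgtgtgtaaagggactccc
Acadvl, chr11:70015379-70015678: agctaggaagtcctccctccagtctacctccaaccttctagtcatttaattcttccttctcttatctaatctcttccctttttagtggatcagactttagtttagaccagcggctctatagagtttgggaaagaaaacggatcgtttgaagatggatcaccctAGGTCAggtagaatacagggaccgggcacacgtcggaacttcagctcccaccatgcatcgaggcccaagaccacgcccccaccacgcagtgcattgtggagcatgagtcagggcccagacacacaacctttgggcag
Echs1, chr7:140116372-140116671: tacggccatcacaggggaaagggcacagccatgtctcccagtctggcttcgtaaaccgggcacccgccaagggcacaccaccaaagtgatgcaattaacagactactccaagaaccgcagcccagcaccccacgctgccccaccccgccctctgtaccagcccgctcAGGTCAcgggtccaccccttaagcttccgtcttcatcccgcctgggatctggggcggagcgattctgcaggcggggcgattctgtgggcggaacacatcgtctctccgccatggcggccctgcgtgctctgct

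In Acadvl and Echs1 the half-site begins at -87 and -83 from the start, in the gene's direction, and in Acadm at -249 on the opposite strand. These genes had CANA minus HFD of 0.14, 0.06 and 0.29. The guanine and cytosine content of the windows had a median of 61% in mitochondrial and 57.3% in peroxisomal members, against 52.7% over all windows.

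The tissue and the arrays were checked as a whole. All 6 hepatocyte markers were tested, and their log2 values summed to 72.5 to 73.2 in CANA, 72.9 to 73.3 in CR and 72.8 to 73.0 in HFD. Their median was -0.02 in CANA minus HFD, with 2 of 6 above zero (46.1% of all genes), and -0.05 in CANA minus CR. Of the other cell types, Kupffer cell and macrophage markers (6 of 6 tested) had sums of 38.2 to 41.5 in CANA, 34.7 to 39.9 in CR and 35.6 to 42.0 in HFD, with medians of 0.14 in CANA minus HFD and 0.15 in CANA minus CR. Adipocyte markers (3 of 6 tested) had sums of 14.2 to 16.0 in CANA, 14.0 to 15.4 in CR and 14.0 to 14.9 in HFD. All 3 were above zero in both comparisons, against 46.1% and 48.8% of all genes, with medians of 0.10 and 0.30. Among them Cidec, a lipid droplet gene that fatty hepatocytes are also known to express, differed by 0.87 and 0.63. Retn differed by only 0.00043 and 0.058. Adipoq and Lep were too dim to be tested. Lep read 2.51 to 3.03 in CANA, 2.85 to 3.46 in HFD and 2.19 to 3.23 in CR. Adipoq read 2.80 to 3.42, 2.90 to 3.25 and 2.90 to 3.47 in the same order. Stellate cell markers (all 6 tested) had sums of 43.9 to 45.3 in CANA, 42.3 to 44.8 in CR and 43.2 to 45.3 in HFD. Their medians were 0.11 and 0.12, and 4 were above zero in both comparisons, against 46.1% and 48.8% of all genes. The part of these cell types in the members' values was not tested. Medians in the same order were -0.09 and -0.08 for endothelial markers (6 of 6 tested), -0.06 and -0.0043 for cholangiocyte and 0.05 and -0.0015 for lymphocyte markers (3 of 6 tested each). No marker of any list passed. Array medians were 4.07 to 4.13 on the log2 scale, and the lowest correlation of any 2 arrays across genes was 0.977. RMA normalizes the arrays to each other, and such correlations rest mainly on gene levels, so neither value shows the absence of a batch. The arrays carry no read depth, and their number limits the precision.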

How the data were processed

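Liver RNA (250 ng, labelled by the WT Plus protocol per the labels) was hybridised to 13 arrays. The deposited log2 values were made by RMA in Affymetrix Expression Console, per the submitters' processing notes; versions and build are not given in the sources used here. Probe sets were named through the platform annotation, updated by Entrez identifier to RefSeq. Of 41345 probe sets, 23521 had 1 gene symbol, and those with several (1814) or none listed (16010) were left out. A gene was tested if its mean over the arrays reached the 40th percentile of genes.

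The 3 groups were fitted together with limma 3.58.1 (R 4.3.3) without covariates, two-sided, with Benjamini-Hochberg adjustment over 13308 genes. A gene was called at an adjusted p under 0.05. The fit was tested on simulated data for CANA against HFD, with changes larger than any difference of a member. That test does not show whether differences of the members' size would be found. Members, lists, classes, serial-number sets and most settings were chosen with earlier results of these data known. Members given array by array were those with the smallest F-test p per class (4 mitochondrial, 5 peroxisomal, 1 in both compartments) and the pairs or subunits Hadha and Hadhb, Acaa1a and Acaa1b, Abcd2 and Abcd3, and Etfa, Etfb and Etfdh. The 2 genes with the smallest p of each further list were named beside called ones. Promoters were aligned with Biopython 1.88. Alternatives covered the threshold, filter, normalization, variance model, array weights, probe sets, arrays in the fit, replicate number, serial number, classes and leaving out each array.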

Additional observations from a re-analysis of the deposited data

Results flagged for a closer look

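In 96 groups of member values (32 members in 3 groups), 5 had an array that stood apart from the rest of its group by Dixon's ratio, and chance gives about 1 in 20. Abcd2 was at 4.453 in HFD replicate 1, with the other HFD arrays at 6.821 to 7.142. Acads was at 8.834 in CANA replicate 4, below 9.209 to 9.275 in the other CANA arrays. Acaa1a was at 7.964 in HFD replicate 3, above 7.456 to 7.511 in the rest of HFD. Pecr was at 8.779 in CR replicate 1, above 8.476 to 8.537 in the rest of CR. Amacr was at 10.48 in CANA replicate 2, above 9.998 to 10.04 in the rest of CANA.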

How the results depend on the processing

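The count of 0 called members held in all 3 comparisons under each of the 28 alternatives of a comparison, while the count over all genes ran from 0 to 56 in CANA against HFD, 0 to 1 in CR against HFD and 0 to 34 in CANA against CR. Over the alternatives the peroxisomal median ran from -0.02 to 0.16 in CANA minus HFD and from -0.04 to 0.12 in CANA minus CR. The mitochondrial median ran from 0.08 to 0.15 and from 0.10 to 0.17. The mitochondrial median exceeded the peroxisomal one in 27 of 28 alternatives in CANA minus HFD (not within serial numbers 1 to 8, by -0.01), and in 28 of 28 in CANA minus CR. In CR minus HFD, where the gap was -0.03, it did so in 6 of 28, with gaps from -0.08 to 0.06. Alternatives that leave out an array of the group outside a comparison, or change only the variance model, cannot alter its medians. These counts are therefore no measure of how firm the gap is, and the gap was not tested. Arrays of different groups with the same replicate number carry neighbouring serial numbers. Their deviations from the group means correlated at 0.0246 to 0.296 in CANA against HFD, and at -0.15 to 0.209 in the comparisons with CR. The main fit did not pair the arrays by replicate number. With the replicate block 29, 1 and 17 genes were called in CANA against HFD, CR against HFD and CANA against CR, none a member, and the differences of Abcd2 and Eci2 in CR minus HFD turned to -0.052 and -0.031.

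Of 48 member differences followed, none was called under any alternative, and signs turned only for ones near zero or for Abcd2, Acox2, Acaa1a and Acadm; the cause was not tested. Within serial numbers 1 to 8, CANA minus HFD turned to 0.17 for Abcd2, 0.0094 for Abcd3 and 0.069 for Acox2, and CR minus HFD to -0.041 for Eci2 and 0.081 for Etfdh. Within 9 to 14, CANA minus HFD of Acaa1b turned to -0.14, and CANA minus CR to -0.10 for Abcd3 and -0.073 for Acaa1b. There CR minus HFD turned to -0.050 for Abcd2, 0.014 for Abcd3, -0.068 for Acaa1a, -0.070 for Acaa1b, -0.053 for Acadm, 0.023 for Decr1 and 0.0030 for Hadha. With the serial number as a covariate, Acaa1b in CANA minus CR was -0.0031 and Abcd2 in CR minus HFD -0.018. Array weights gave -0.0043 for Abcd3 and -0.0033 for Acaa1b in CANA minus CR, another quantile normalization -0.0096 for Abcd3 there and 0.0031 for Decr1 in CR minus HFD, and the mean of probe sets 0.018 for Phyh in CR minus HFD.

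Leaving out 1 array, CANA minus HFD ran from -0.87 to 0.056 for Abcd2 and from -0.089 to 0.0032 for Abcd3, and CANA minus CR from -0.076 to 0.10 for Acaa1b and from -0.040 to 0.042 for Abcd3. CR minus HFD ran from -0.13 to 0.024 for Hadhb, -0.065 to 0.0086 for Decr1, -0.11 to 0.022 for Etfdh, -0.20 to 0.049 for Pex11a, -0.044 to 0.089 for Eci2 and -0.088 to 0.021 for Hadha. It ran from -0.031 to 0.16 for Acaa1b, -0.53 to 0.37 for Abcd2 and -0.12 to 0.044 for Etfb. The low value of Abcd2 came without HFD replicate 1.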
